A study of Mus musculus with 6 samples.

Results

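The genes described here are 40 genes of the NRF2, glutathione and peroxide defence, measured in 4T1 (a line from a mouse mammary carcinoma), out of 22105 features with a gene identifier in the deposited table. They were chosen by name from a fixed list of symbols, and all 40 were found. RNA was sequenced from 6 samples of this line: 3 exposed for 24 h to CM-PEG-PLGA@DOX/R848 nanoparticles, dosed to carry 2 µg/mL of doxorubicin, and 3 given PBS. Doxorubicin (DOX) is an anthracycline that poisons topoisomerase II and can cycle electrons to oxygen, and R848 (resiquimod) is an agonist of the endosomal receptor TLR7. No source used here says that samples sharing a treatment were grown separately, so each p-value reflects sample-to-sample spread that may be no more than technical. All samples are of 1 cell line, and levels in such bulk RNA cannot tell fewer cells with a transcript from less of it per cell.

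NRF2, the transcription factor encoded by Nfe2l2, is held low in resting cells by KEAP1, an adaptor that hands it to a CUL3 ubiquitin ligase. Oxidants and electrophiles modify KEAP1, NRF2 then builds up without needing more of its own mRNA, and it binds antioxidant response elements as a dimer with a small MAF protein. Its known targets make glutathione, reduce thioredoxin, supply NADPH and remove quinones and heme. Peroxiredoxins, glutathione peroxidases and catalase destroy hydrogen peroxide, which superoxide dismutases form from superoxide.

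Values are FPKM, fragments scaled to transcript length and to the mapped fragments of the library, so levels can be compared between genes. Changes are log2 fold changes of FPKM + 1, nanoparticle minus PBS, which understate the change of low genes, and a gene is called at an adjusted p under 0.05 (limma, Benjamini-Hochberg over all tested genes). The test took in 10863 genes that reached 1 FPKM in no fewer than 3 libraries, 38 of the 40 described here among them. The groups stood far apart across the whole transcriptome: 40.5% of the tested genes were called higher and 46% lower with nanoparticles, 86.4% in all. A call by itself therefore says little about any one gene, and sizes and levels carry the description that follows.

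The cell type in the labels was checked against markers. Of 9 epithelial markers, summed FPKM was 1127 to 1169 in nanoparticle libraries and 825.0 to 837.6 in PBS libraries, mostly the keratins Krt8 and Krt18, while Epcam and Cldn7 stayed under 1 FPKM in each library. Of 14 macrophage markers, 12 stayed under 1 FPKM in all libraries; their sum was 37.3 to 41.2 FPKM in nanoparticle libraries and 10.9 to 14.7 FPKM in PBS libraries, most of it Cd68, and 8 of them were listed at 0 in all PBS libraries, against 1 in all nanoparticle libraries. The 10 lymphocyte markers summed to 2.59 to 3.07 FPKM in nanoparticle libraries and 1.19 to 1.29 FPKM in PBS libraries, with 9 under 1 FPKM throughout. Of 8 fibroblast markers, 6 stayed under 1 FPKM, among them the collagens Col1a1, Col1a2 and Col3a1, and the sum was 7.77 to 9.65 FPKM with nanoparticles and 32.7 to 33.0 FPKM with PBS, nearly all of it Pdgfra and Pdgfrb. Genes above 0 FPKM numbered 18319 to 18509 in nanoparticle libraries and 13544 to 13808 in PBS libraries. The part of these differences in the results was not tested.

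The antioxidant response element is the stretch by which NRF2 is known to reach its targets, so stretches of promoter that hold its core letters are shown for genes that rose, fell or did not pass. The core TGACNNNGC was searched on both strands in RefSeq promoter windows (GRCm38.p6, 250 bases before to 50 after each annotated start). A gene can have more than 1 such start and window. A window was at hand for 34 of the 40 genes; Hmox1, Gclc, Gsr, Gsta4, Prdx6 and Sod3 had none. Of those 34, 11 held the core in at least 1 window (32.4%), against 14% of the 27025 genes in the whole promoter table. That table includes many genes not tested here. Of all tested genes with a window, 1467 held the core and 7113 lacked it. Capitals mark the core, and each stretch is written 5′ to 3′ on the strand on which the core reads TGAC first.
Prdx1, chr4:116685441-116685499, minus strand: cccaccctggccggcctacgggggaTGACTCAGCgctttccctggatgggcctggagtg
Srxn1, chr2:152105542-152105570, minus strand: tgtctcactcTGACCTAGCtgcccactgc
Txnrd1, chr10:82859089-82859147, minus strand: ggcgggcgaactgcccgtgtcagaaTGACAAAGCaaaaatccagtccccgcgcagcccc
Gclm, chr3:122245398-122245456, minus strand: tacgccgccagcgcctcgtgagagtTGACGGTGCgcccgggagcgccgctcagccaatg
Me1, chr9:86695902-86695930, minus strand: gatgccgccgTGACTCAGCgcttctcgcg
Mgst1, chr6:138140461-138140489, minus strand: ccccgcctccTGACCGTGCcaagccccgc
Nfe2l2, chr2:75704870-75704913, minus strand: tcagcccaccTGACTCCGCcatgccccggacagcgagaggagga
The stretches of Srxn1, Me1 and Mgst1 overlap an annotated UTR in GENCODE and are cut to 29 bases. Prdx1, Srxn1 and Txnrd1 were called higher, Gclm did not pass, and Me1, Mgst1 and Nfe2l2 were called lower. Prdx1 and Me1 held the same letters, TGACTCAGC, found in 0.454% of all 32851 windows, and their transcripts changed in opposite directions. Those letters contain TGACTCA, the AP-1 element, so in these 2 genes both motifs overlap. The core lay 133 to 125 bases before the annotated start used for Prdx1 and 56 to 48 bases before that used for Mgst1. In Srxn1 it lay 29 to 37 bases into the transcript, counting the start as 1. The Txnrd1 window begins at 82858956, inside the gene, whose span begins at 82833951. Among the 11 tested members with the core, 5 were called higher, 4 lower and 2 did not pass; among the 21 tested members whose windows lacked it, 14 were higher and 7 lower. Over all tested genes with a window, 39.1% of those with the core and 40.9% of those without it were called higher. Those called lower were 47.5% with the core and 45.4% without it. A match is a description of letters in this window and not a binding site.

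Taking the 40 genes together, 22 of the 38 tested were called higher with nanoparticles (57.9%, against 40.5% of all tested genes), 13 lower (34.2%, against 46% of all) and 3 did not pass. Their median log2 fold change was 0.31, against -0.06 over all tested genes. On the log2(FPKM + 1) scale 6 were at least 2-fold higher (10.2% of all tested genes were), Gpx1, Hmox1, Srxn1, Prdx6, Nqo1 and Gpx8, and 1 was at least 2-fold lower (13.5% of all), Mgst1. By the plain ratio of mean FPKM, PBS over nanoparticle, Sod3 (2.16) and Me1 (2.01) were past 2-fold lower as well. On the TPM scale 4 members were at least 2-fold higher, without Nqo1 and Gpx8, and 5 lower, Mgst1, Me1, Glrx, Sod2 and Cat (8.98% and 19.9% of all tested genes). The libraries of the groups did not overlap for 21 members that were higher (40.8% of all tested genes) and 12 that were lower (46.4% of all), where 87.2% of all tested genes did not overlap in one direction or the other. The summed level of all 40 was 3438 ± 8.55 FPKM in nanoparticle libraries and 2327 ± 16.2 FPKM in PBS libraries (SD, n = 3 each), which was 0.729% of the summed FPKM of the table with nanoparticles and 0.549% of it with PBS.

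**Figure D1:**
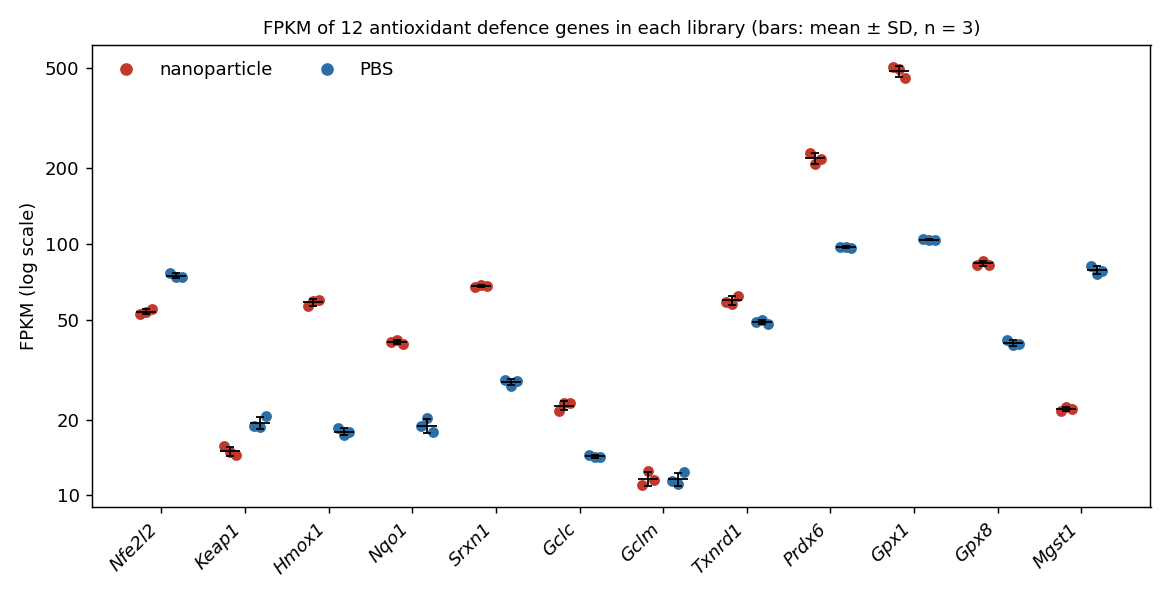
FPKM (log axis) of Nfe2l2, Keap1, the 6 classical NRF2 targets and the other genes called with a log2 fold change of FPKM + 1 of at least 1 in size, in each nanoparticle (left, red) and PBS (right, blue) library; bars give mean ± SD, n = 3. Only Gclm has groups that overlap; Gpx1 is at 459 to 505 FPKM with nanoparticles and near 104 FPKM with PBS.

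The sensor and its factor were both lower at the RNA level. Nfe2l2 (chromosome 2, 75675513 to 75704641, GRCm38) had 52.7, 53.4 and 55.1 FPKM in nanoparticle libraries, against 76.6, 74.0 and 74.1 FPKM in PBS libraries. Keap1 had 15.7, 14.8 and 14.4 FPKM in nanoparticle libraries, against 18.8, 18.8 and 20.6 FPKM in PBS libraries. For both genes each nanoparticle library lay below each PBS library. The log2 fold change was -0.47 for Nfe2l2 (SE 0.03, adjusted p = 2.21e-07, limma) and -0.35 for Keap1 (SE 0.05, adjusted p = 8.98e-05, limma). The ratio of Keap1 to Nfe2l2 within a library was 0.279 ± 0.018 with nanoparticles and 0.259 ± 0.017 with PBS (SD, n = 3 each), and the groups overlapped (two-sided exact permutation p = 0.2; 3 against 3 libraries cannot give less than 0.1, so the test cannot show whether the ratio changed).

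Of the 6 classical NRF2 targets, Hmox1, Srxn1, Nqo1, Gclc and Txnrd1 rose and Gclm did not pass. By comparison, 40.5% of all tested genes were called higher. These 6 were chosen by name, and of 25 further tested NRF2 targets, described further on, 7 rose and 13 fell. Hmox1, heme oxygenase, which opens heme to biliverdin, carbon monoxide and iron, had 56.5, 59.2 and 59.8 FPKM in nanoparticle libraries, against 18.5, 17.3 and 17.9 FPKM in PBS libraries. That was 3.27 times the PBS mean (log2 fold change 1.65, SE 0.038, adjusted p = 2.57e-10, limma), the second largest rise among the 40 genes. Nqo1, a reductase of quinones, had 40.7, 41.3 and 40.1 FPKM in nanoparticle libraries, against 18.8, 20.2 and 17.8 FPKM in PBS libraries (log2 fold change 1.07, SE 0.046, adjusted p = 1.45e-08, limma). For both genes the groups were far apart compared with the spread inside them. The third gene of the heme and quinone group, Blvrb, a flavin and biliverdin reductase, was at 15.4 ± 0.96 FPKM with nanoparticles and 13.4 ± 1.32 FPKM with PBS; its libraries overlapped, and its call (log2 fold change 0.19, adjusted p = 0.0327, limma) was lost at 0.106 without PBS replicate 2, at 0.0991 without nanoparticle replicate 1 and at 0.1 without nanoparticle replicate 2.

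Glutathione is made from cysteine by glutamate-cysteine ligase, whose catalytic subunit is Gclc and whose modifier subunit is Gclm, and then by glutathione synthetase, Gss. Gclc had 21.6, 23.3 and 23.4 FPKM in nanoparticle libraries, against 14.5, 14.2 and 14.2 FPKM in PBS libraries (log2 fold change 0.63, SE 0.042, adjusted p = 3.19e-07, limma). Gclm had 10.96, 12.5 and 11.5 FPKM in nanoparticle libraries, against 11.4, 11.04 and 12.3 FPKM in PBS libraries, and its groups overlapped (log2 fold change 0.00, SE 0.06, adjusted p = 0.953, limma). So the 2 subunits of 1 enzyme moved apart: within a library Gclm was 0.512 ± 0.024 of Gclc with nanoparticles and 0.811 ± 0.049 of it with PBS. Gss averaged 15.0 ± 0.121 FPKM with nanoparticles and 8.63 ± 0.427 FPKM with PBS and was called higher (log2 fold change 0.73); Acss2, transcribed from the other strand over much of the same interval, was at 15.4 FPKM with nanoparticles and 17.9 FPKM with PBS. Gsr, the reductase that returns oxidised glutathione to its reduced form with NADPH, went the other way, at 34.2 ± 1.11 FPKM with nanoparticles and 50.2 ± 0.596 FPKM with PBS (log2 fold change -0.54).

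In the thioredoxin system the carriers rose and the enzymes around them split. Srxn1, sulfiredoxin, which repairs peroxiredoxins that peroxide has over-oxidised, had 67.6, 68.9 and 67.8 FPKM in nanoparticle libraries, against 28.7, 27.2 and 28.5 FPKM in PBS libraries (log2 fold change 1.246, SE 0.031, adjusted p = 4.54e-10, limma). Txnrd1, the cytosolic thioredoxin reductase, had 58.8, 57.8 and 62.3 FPKM in nanoparticle libraries, against 49.0, 49.7 and 48.2 FPKM in PBS libraries (log2 fold change 0.28, adjusted p = 3.38e-05, limma). Both rose without overlap of the groups, Srxn1 to 2.42 times and Txnrd1 to 1.22 times the PBS mean. The mitochondrial reductase Txnrd2 was lower, at 11.6 ± 0.749 FPKM with nanoparticles and 15.5 ± 1.75 FPKM with PBS (log2 fold change -0.39, but -0.10 and not called once the trend with gene length was removed). The cytosolic carrier Txn1 stood at 281 ± 7.11 and 174 ± 4.17 FPKM and the mitochondrial Txn2 at 68.3 ± 1.62 and 35.7 ± 0.409 FPKM (nanoparticle, then PBS), both called higher. Glrx, glutaredoxin, which frees proteins from glutathione, was at 26.1 ± 0.6 FPKM with nanoparticles and 51.0 ± 0.957 FPKM with PBS (log2 fold change -0.94).

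**Figure D2:**
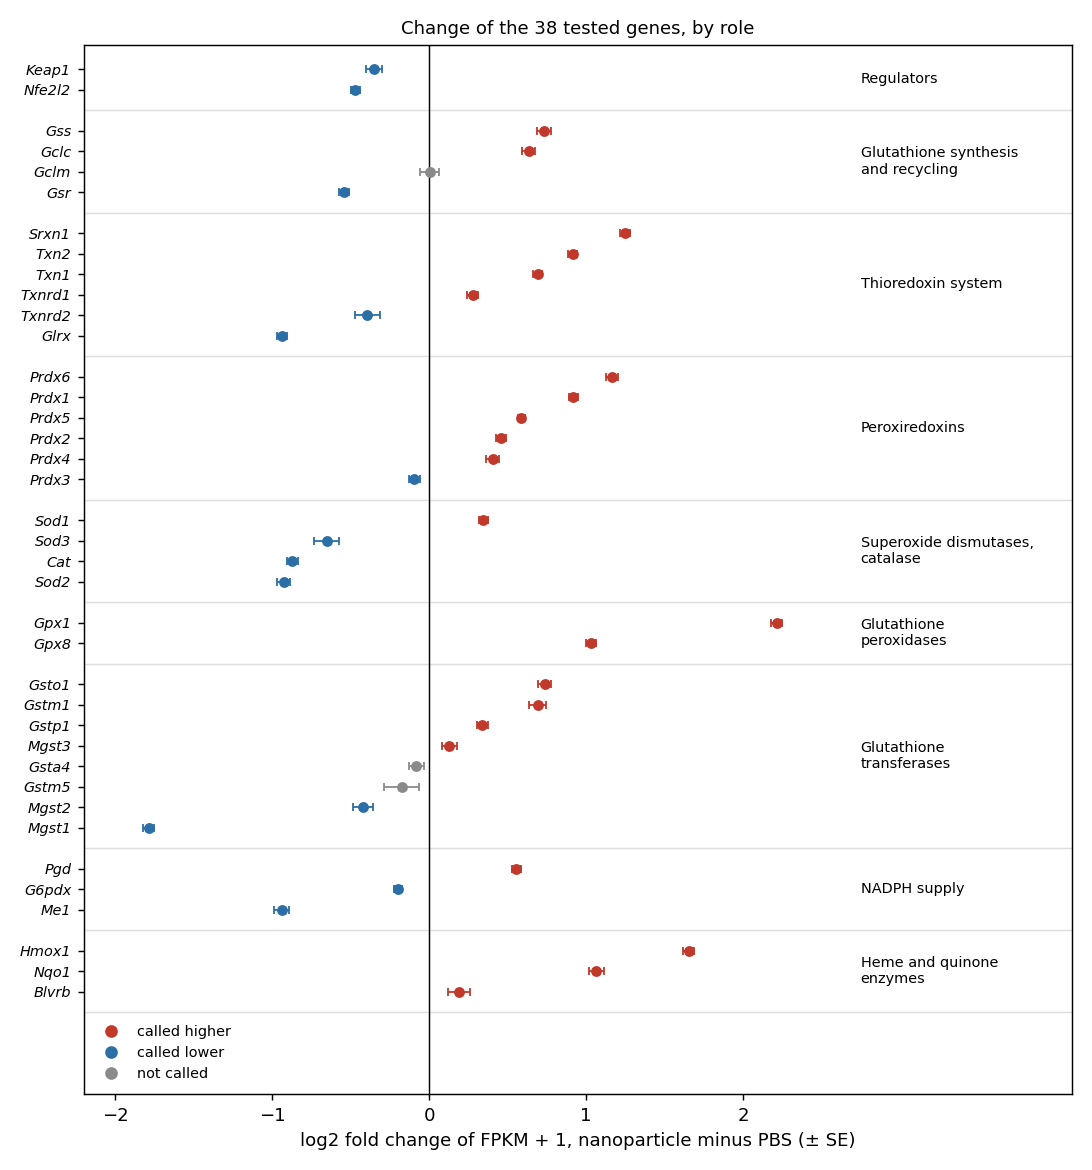
Log2 fold change of FPKM + 1, nanoparticle minus PBS, with its standard error for the 38 tested genes, grouped by role and sorted within each group; red marks genes called higher, blue lower and grey neither. Peroxiredoxins lie to the right of 0 apart from Prdx3, and Sod2, Sod3 and Cat lie to the left of it.

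Peroxiredoxins, the thiol peroxidases that thioredoxin keeps reduced, were the most abundant group, summing to 1071 ± 21.8 FPKM in nanoparticle libraries and 655 ± 4.4 FPKM in PBS libraries. Prdx6, the 1-cysteine member that uses glutathione, had 230.0, 208 and 219 FPKM in nanoparticle libraries, against 97.6, 97.2 and 96.1 FPKM in PBS libraries (log2 fold change 1.17, SE 0.036, adjusted p = 1.45e-09, limma). Each nanoparticle library had over 2 times the level of any PBS library. Prdx1, a cytosolic member whose promoter stretch is printed above, averaged 366 ± 8.64 FPKM with nanoparticles and 193 ± 3.69 FPKM with PBS (log2 fold change 0.92). Prdx5, found in several compartments, had a log2 fold change of 0.59, cytosolic Prdx2 one of 0.46 and Prdx4 of the endoplasmic reticulum one of 0.41, all called higher. Prdx2 shares 351 bases with the opposite-strand gene Junb, itself at 310.2 FPKM with nanoparticles and 63.7 FPKM with PBS. No source used here says whether counting used strand, so reads of such pairs cannot be told apart; Prdx5, Txnrd2 and Sod1 also overlap an opposite-strand gene, by 409, 469 and 650 bases. Prdx3, the mitochondrial peroxiredoxin, was at 51.0 ± 1.84 FPKM with nanoparticles and 54.5 ± 1.6 FPKM with PBS; its libraries overlapped, and its call (log2 fold change -0.09, adjusted p = 0.033, limma) was lost at 0.354 with median-of-ratios scaling, at 0.0653 without PBS replicate 2, at 0.117 without PBS replicate 3, at 0.0712 without nanoparticle replicate 1 and at 0.113 without nanoparticle replicate 2.

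Among the enzymes of superoxide and its product, the cytosolic form rose and the other 3 fell. Of all tested genes, 40.5% were called higher and 46% lower. Sod1, the copper and zinc dismutase of the cytosol, averaged 289 ± 4.91 FPKM with nanoparticles and 227 ± 7.84 FPKM with PBS (log2 fold change 0.35, but -0.024 and not called once the trend with gene length described further on was removed). Sod2, the manganese dismutase of mitochondria, averaged 13.6 ± 0.407 FPKM with nanoparticles and 26.8 ± 0.728 FPKM with PBS (log2 fold change -0.93). Within a library Sod1 was 21.2 ± 0.545 times Sod2 with nanoparticles and 8.47 ± 0.202 times with PBS, so the balance between them moved by more than its replicate spread. Catalase, Cat, the peroxisomal enzyme that splits hydrogen peroxide, was at 19.5 ± 0.329 FPKM with nanoparticles and 36.5 ± 1.02 FPKM with PBS (log2 fold change -0.87). Sod3, the extracellular dismutase, was low in both groups, at 0.984 ± 0.083 and 2.12 ± 0.22 FPKM (nanoparticle, then PBS; log2 fold change -0.65).

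The largest rise of the 40 genes was that of Gpx1, the selenium-dependent peroxidase of cytosol and mitochondria (chromosome 9, 108338903 to 108340343, GRCm38). It had 505, 498 and 459 FPKM in nanoparticle libraries, against 105, 104 and 104 FPKM in PBS libraries. Its log2 fold change was 2.22 (SE 0.036, adjusted p = 4.11e-11, limma), and it ranked first in level among the 40 with nanoparticles and sixth with PBS, where Sod1 was first. Gpx8, a peroxidase of the endoplasmic reticulum lumen, had 82.8, 85.7 and 82.3 FPKM in nanoparticle libraries, against 41.6, 39.6 and 39.9 FPKM in PBS libraries (log2 fold change 1.03, SE 0.031, adjusted p = 1.3e-09, limma). The ratio of Gpx1 to Gpx8 was 5.83 ± 0.259 with nanoparticles and 2.58 ± 0.048 with PBS. Gpx7, the related peroxidase of the same compartment, was not tested: it was listed at 0 in all PBS libraries and reached 0.142 FPKM in 1 nanoparticle library. Gpx4, a glutathione peroxidase outside the 40 genes, was called lower, at 376 ± 16.4 FPKM with nanoparticles and 454 ± 9.57 FPKM with PBS. Its log2 fold change was -0.27, and -0.65 with the length trend removed.

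Glutathione transferases, which join glutathione to electrophiles, went both ways and kept nearly the same sum, 514 ± 19.0 FPKM with nanoparticles and 489 ± 1.46 FPKM with PBS. Mgst1, the microsomal transferase and peroxidase (chromosome 6, 138140316 to 138156755, GRCm38), had 21.7, 22.5 and 22.1 FPKM in nanoparticle libraries, against 81.6, 76.1 and 78.3 FPKM in PBS libraries. It was the largest fall of the 40 genes, the PBS mean being 3.56 times the nanoparticle mean (log2 fold change -1.79, SE 0.035, adjusted p = 1.11e-10, limma). Mgst2 fell too (log2 fold change -0.42, 63.5 ± 5.87 and 85.2 ± 2.749 FPKM, nanoparticle then PBS), and Mgst3 was near level at 14.8 ± 0.335 FPKM with nanoparticles and 13.5 ± 0.676 FPKM with PBS; its call as higher (adjusted p = 0.026, limma) was lost at 0.0668 without PBS replicate 1, at 0.0968 without PBS replicate 3 and at 0.0784 without nanoparticle replicate 1. Of the cytosolic classes, Gsto1 (log2 fold change 0.74), Gstm1 (0.69) and Gstp1 (0.34) were called higher, although Gstp1 was called lower (-0.17) with the length trend removed. Gsta4, which conjugates aldehydes from lipid peroxidation, averaged 27.3 ± 0.478 FPKM with nanoparticles and 29.0 ± 2.03 FPKM with PBS, and Gstm5 averaged 7.34 ± 1.42 FPKM with nanoparticles and 8.33 ± 0.518 FPKM with PBS; neither passed, although Gsta4 was called lower without PBS replicate 1 (adjusted p = 0.0182, limma) and Gstm5 without nanoparticle replicate 3 (adjusted p = 0.00269, limma), and both with the length trend removed (-0.25 for Gsta4, -0.71 for Gstm5). Gstt1 reached at most 0.121 FPKM in any library and was not tested. Gstm1 and Gstp1 have close copies whose reads may be split: Gstm1 plus Gstm2 summed to 259 ± 8.9 FPKM with nanoparticles and 160.0 ± 4.3 FPKM with PBS, and Gstp1 plus Gstp2 to 274 ± 10.9 FPKM with nanoparticles and 217 ± 5.15 FPKM with PBS.

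**Figure D3:**
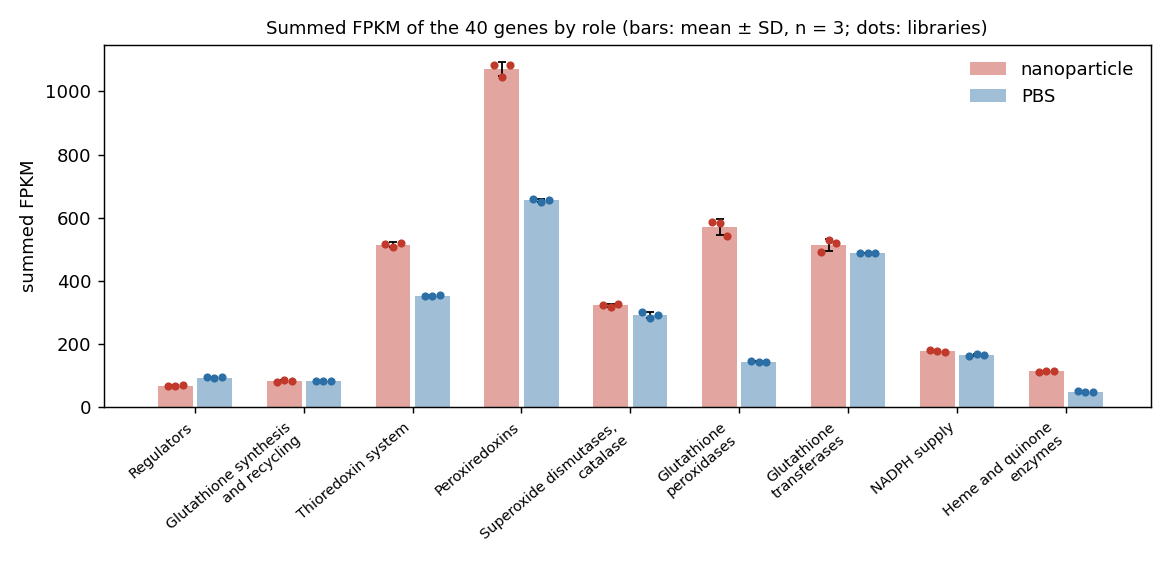
Summed FPKM (linear axis from 0) of the genes of each role in nanoparticle (left, red) and PBS (right, blue) libraries; bars give mean ± SD, n = 3, and dots single libraries. Glutathione peroxidases sum to 571 FPKM with nanoparticles and 144 FPKM with PBS, and the genes of glutathione synthesis and recycling to 83.5 FPKM with nanoparticles and 84.7 FPKM with PBS.

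The enzymes that supply NADPH to both thiol systems were split as well. G6pdx, the first enzyme of the oxidative pentose phosphate pathway, averaged 66.8 ± 0.832 FPKM with nanoparticles and 76.8 ± 1.52 FPKM with PBS (log2 fold change -0.20). Pgd, which makes NADPH at a later step of that pathway, averaged 101 ± 3.06 FPKM with nanoparticles and 68.4 ± 0.73 FPKM with PBS (log2 fold change 0.56). Me1, the cytosolic malic enzyme, averaged 9.88 ± 0.536 FPKM with nanoparticles and 19.8 ± 0.61 FPKM with PBS (log2 fold change -0.94). All 3 were called, with no overlap between the groups, where 86.4% of all tested genes were called and 87.2% did not overlap. G6pdx lies within the interval of Ikbkg on the opposite strand, which was at 11.1 FPKM with nanoparticles and 13.7 FPKM with PBS.

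Members of matching function in cytosol and mitochondria were compared within each library. The log2 ratio of Txnrd1 to Txnrd2 was 2.27 ± 0.078 with nanoparticles and 1.60 ± 0.135 with PBS (difference 0.67), and that of Sod1 to Sod2 was 4.31 ± 0.035 with nanoparticles and 3.03 ± 0.034 with PBS (difference 1.27). For the carriers the ratio moved the other way: Txn1 over Txn2 was 2.02 ± 0.068 with nanoparticles and 2.25 ± 0.036 with PBS (difference -0.22). Of 6 pairs compared in all, Gclm over Gclc, Txn1 over Txn2, Txnrd1 over Txnrd2, Sod1 over Sod2, and Gpx1 over Gpx8 had groups that did not overlap (two-sided exact permutation p = 0.1 each, 0.12 adjusted over the pairs), the smallest p that 3 against 3 libraries allow, so none could pass a threshold of 0.05. Among the 4 genes listed here as mitochondrial, Txn2 was called higher and Txnrd2, Prdx3 and Sod2 lower. Across all tested genes 40.5% were higher and 46% lower. The calls of Txnrd2 and Prdx3 depend on the settings given beside them. Gpx1, of cytosol and mitochondria, and Prdx5, found in several compartments, were not in that list, and both were called higher.

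Across the transcriptome, genes with a long genomic span (gene start to gene end) were mostly lower with nanoparticles, and the members tested here were shorter than most. They had a median span of 15.1 kb, against 23.2 kb over all tested genes. Of 13 members under 10 kb, 10 were called higher and 2 lower; of all tested genes under 10 kb, 60.2% were higher and 25.7% lower. Of 11 members over 25 kb, 3 were higher and 6 lower, where 65.8% of all tested genes over 25 kb were lower. Spearman's rho of span with log2 fold change was -0.46 over the 38 members and -0.49 over 10836 genes, a description of genes that share the same 6 libraries. Against this trend, Gclc (39.95 kb), Txnrd1 (63.8 kb) and Gss (29.6 kb) were the long members that rose, and Keap1 (9.63 kb) and Sod3 (7.63 kb) the short ones that fell.

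**Figure D4:**
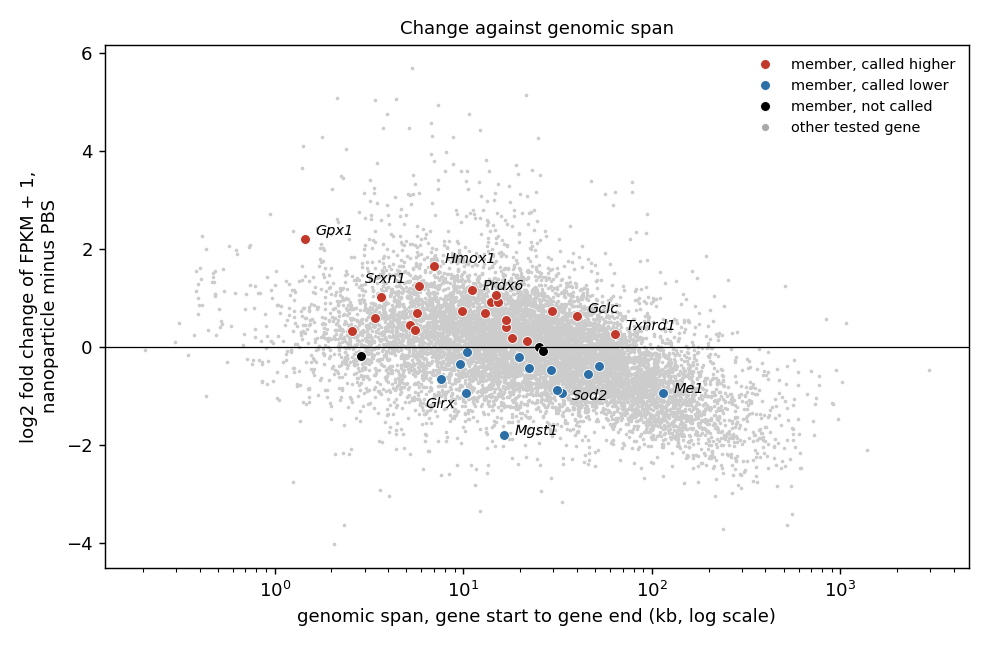
Log2 fold change of FPKM + 1, nanoparticle minus PBS, against genomic span in kb (log axis) for all tested genes with an annotated span (grey) and the 38 tested members (red called higher, blue called lower, black not called). Gpx1, with a span of 1.44 kb, lies at the top left, and Me1, with 115 kb, is the longest member.

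Once the trend with span and exonic length was taken out of the fold changes, 18 members were higher and 16 lower (38% and 46.1% of all genes), with a median of -0.02, against -0.07 over all genes. The rises of Gpx1 (1.70), Hmox1 (1.23), Prdx6 (0.90), Srxn1 (0.87), Nqo1 (0.78), Gclc (0.76) and Txnrd1 (0.72) were still called, as was the fall of Mgst1 (-2.02). Gpx8 kept its call at 0.45, and Txn1 (0.27), Prdx1 (0.66), Prdx2 (0.08), Prdx4 (0.18), Prdx5 (0.15) and Gstm1 (0.22) were also still called higher. Sod1 (-0.024, adjusted p = 0.464, limma), Blvrb (-0.0097, adjusted p = 0.905, limma) and Txnrd2 (-0.10, adjusted p = 0.246, limma) no longer passed, and Gstp1 (-0.17), Mgst3 (-0.14), Gsta4 (-0.25, adjusted p = 0.000925, limma) and Gstm5 (-0.71, adjusted p = 0.00024, limma) were called lower. At least 2-fold, 2 members were then higher, Gpx1 and Hmox1, and 2 lower, Mgst1 and Glrx (7.25% and 8.78% of all genes). The fall of Me1 shrank to -0.27 and that of Prdx3 grew to -0.47. So the count of higher over lower members depends on this trend, while the large changes do not change sign.

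Other genes of the pathway, from lists chosen by role, are set beside these 40. Of 84 such genes with a row, 66 were tested, 22 of them called higher (33.3%, against 40.5% of all tested genes), 32 lower (48.5%, against 46% of all) and 12 not called, with a median log2 fold change of -0.10. With the length trend removed 16 were higher and 39 lower (24.2% and 59.1%, against 38% and 46.1% of all genes), with a median of -0.21. Among 13 tested regulators of NRF2, 3 rose (23.1%), 8 fell (61.5%, against 46% of all tested genes) and 2 did not pass. Maff, a small MAF partner of NRF2, averaged 93.4 ± 3.59 FPKM with nanoparticles and 18.02 ± 1.12 FPKM with PBS (log2 fold change 2.31), and Mafk, another partner, 27.5 ± 1.51 FPKM with nanoparticles and 8.001 ± 0.441 FPKM with PBS (1.66). Mafg, a further small MAF partner, went the other way, at 37.9 ± 1.16 FPKM with nanoparticles and 55.1 ± 1.29 FPKM with PBS (-0.53, and -0.93 with the length trend removed). Cul3, the scaffold of the ligase that KEAP1 serves, fell to 12.5 ± 0.219 FPKM with nanoparticles, against 43.5 ± 1.26 FPKM with PBS (-1.72), and Gsk3b, a kinase that marks NRF2 for a separate route of breakdown, to 2.04 ± 0.033 FPKM with nanoparticles, against 10.7 ± 0.564 FPKM with PBS (-1.94). Cul3 spans 75.6 kb and Gsk3b 157 kb; with the trend removed their log2 fold changes were -1.21 and -0.999, both still called.

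Of 28 further tested genes of glutathione and thioredoxin chemistry, 12 rose (42.9%) and 11 fell (39.3%), where 40.5% of all tested genes were higher and 46% lower, and 5 did not pass. Txnip, which binds and inhibits thioredoxin, averaged 426 ± 12.7 FPKM with nanoparticles and 105 ± 2.77 FPKM with PBS (log2 fold change 2.00). Gstt3, Nxn (nucleoredoxin) and Glrx2, the mitochondrial glutaredoxin, fell, with log2 fold changes of -0.98, -0.98 and -0.85. With the length trend removed these were -1.30, -0.27 and -0.79. Of 25 further tested NRF2 targets, 7 rose (28%, against 40.5% of all), 13 fell (52%, against 46% of all) and 5 did not pass. Slc7a11, which imports the cystine from which glutathione's cysteine comes, was at 0.885 ± 0.136 FPKM with nanoparticles and 18.9 ± 0.336 FPKM with PBS (log2 fold change -3.40, span 551 kb). Abcc3 and Abcc4, pumps that export conjugates, fell by 2.42 and 1.68 on the log2 scale, and Idh1, an NADPH-forming dehydrogenase of the cytosol, fell by 1.21. With the length trend removed the log2 fold changes were -2.10 for Slc7a11, -2.17 for Abcc3, -0.58 for Abcc4 and -1.26 for Idh1, all still called.

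**Figure D5:**
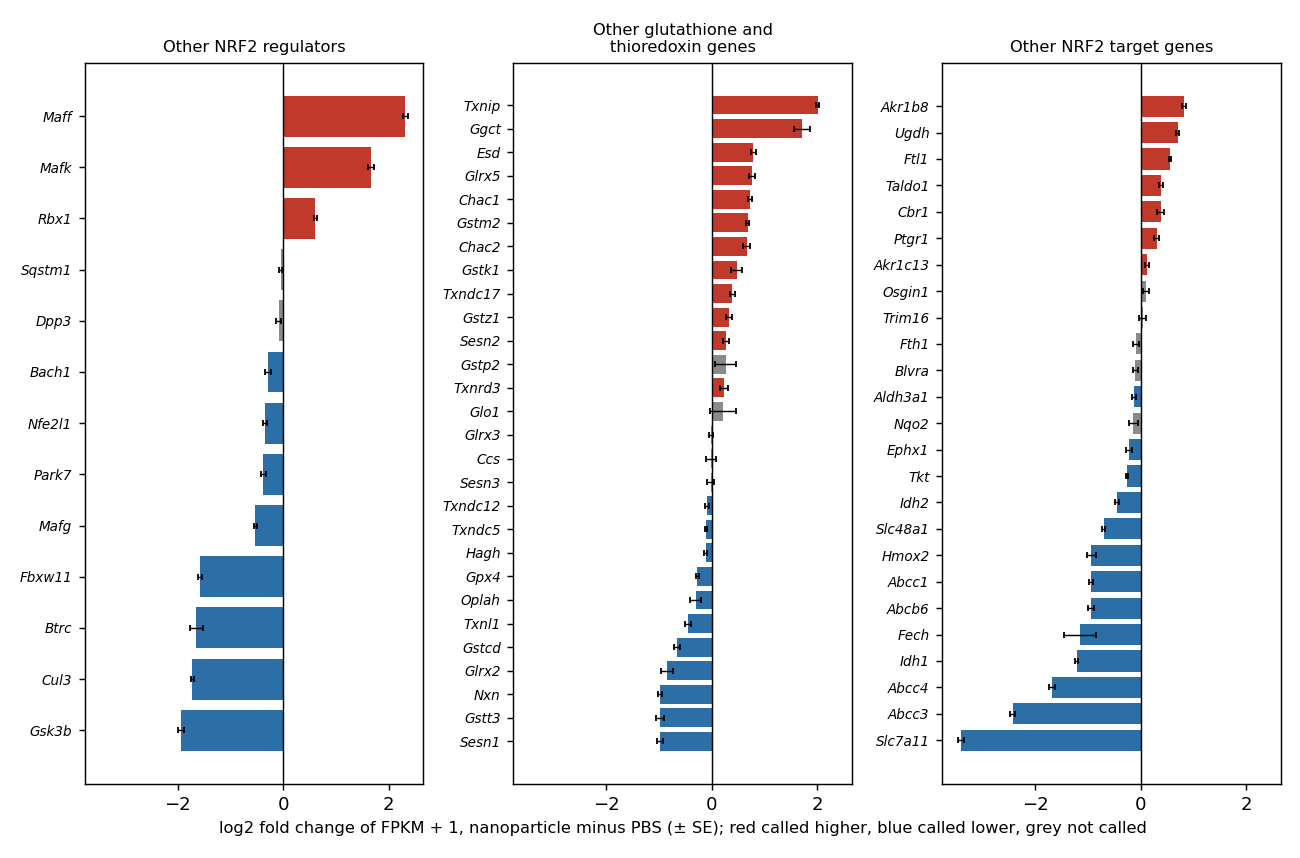
Log2 fold change of FPKM + 1, nanoparticle minus PBS, with its standard error for the tested genes of 3 lists of other pathway genes (red called higher, blue called lower, grey not called). Maff and Txnip lie furthest right, near or above 2, and Slc7a11 furthest left at -3.40.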

How the data were processed

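RNA of 3 nanoparticle and 3 PBS samples was measured, 1 library each. The authors deposited 1 table whose header names no unit. Its values are read here as FPKM because they are not whole and their sums differ, at 468387 to 472870 with nanoparticles and 421544 to 425231 with PBS. The tools STAR and featureCounts and the builds GRCm38 and mm10 are listed in the submitters' processing notes; their versions and roles, and the program behind the deposited FPKM, are not stated there. Low values (under 0.2 FPKM) showed no steps of 1 read (at most 1.97% of ratios in any 1% bin), so depth is unknown and counting error could not be given. Another 701 features without a gene identifier (0.631% to 0.67% of summed FPKM) stayed out of the tests.

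Log2(FPKM + 1) of genes with at least 1 FPKM in 3 libraries was fitted with limma 3.58.1 (R 4.3.3, statmod 1.5.0, trend and robust settings). In simulated data with 10663 of 10863 genes unchanged, it recovered 72% of 1.25-fold and 96% of 2-fold changes, with 4 false calls. In the real data 86.4% of tested genes were called, so the simulation does not test the calls under so broad a difference. Ratios of members within libraries were tested by exact permutation (scipy 1.17.1). Python 3.11.15, numpy 2.4.6, pandas 2.3.3 and matplotlib 3.10.9 were used. Positions came from GENCODE M21 (GRCm38) and promoters from RefSeq (GRCm38.p6). Values are given per library for Nfe2l2, Keap1, the 6 classical targets and members called at least 2-fold on the log2(FPKM + 1) scale. From each other list the 4 called genes with the largest change and a mean of at least 5 FPKM are named, and Gpx4 and Mafg were added. The members and lists were chosen with earlier results of these data known.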

Additional observations from a re-analysis of the deposited data

How the results depend on the processing

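Alternatives were a pseudocount of 0.1, no filter, a filter at 5 FPKM, TPM scale, median-of-ratios scaling, an adjusted p under 0.01, removal of the trend with span and length, each library left out, a replicate block and a test against a 1.5-fold change. Depth is unknown. Against a 1.5-fold change 11 members were higher and 5 lower, other pathway genes 10 higher and 16 lower, and all genes 1853 higher and 2341 lower; with no filter 8445 of all genes were higher (20124 tested). The TPM scale moved the median of all genes by -0.15; there Mgst3 turned to -0.016, Gsta4 (-0.23) and Gstm5 (-0.33) were called lower and Blvrb (0.05) was not called. With the trend removed Sod1 (-0.024), Mgst3 (-0.14), Gstp1 (-0.17) and Blvrb (-0.0097) reversed. The log2 ratio of Sod1 to Sod2 differed by 1.32, nanoparticle minus PBS, with a pseudocount of 0.1, against 1.27 in the main setting. No source used here says that equal replicate numbers mark paired samples. Correlations of same-numbered deviations were -0.014, -0.043 and 0.041, and those of differently numbered ones -0.077 to 0.094. With so few libraries they cannot show whether samples were paired. With a replicate block 22 members were higher and 14 lower: Gstm5 passed as lower (-0.17, adjusted p = 0.0448, limma), and no other member's call changed. With that block 4389 of all genes were higher and 4982 lower (10863 tested). Leaving out 1 library gave 20 to 22 higher and 12 to 14 lower members. Of all genes 4077 to 4328 were then higher and 4663 to 4947 lower (10610 to 10627 tested). The cause was not tested.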
